A study of Mus musculus with 6 samples.

Results

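The genes described here belong to families of enzymes that add or remove methyl and acetyl groups on histone lysines. They were taken by name, as mouse symbols that start with Kdm, Kmt2, Kmt5, Setd, Hdac, Sirt, Kat, Ehmt, Nsd or Suv, with the katanin genes (Katn) left out. The rule found 62 of the 8520 genes in the deposited table. Among them Nsdhl, an enzyme of cholesterol synthesis, only shares the prefix and was set apart. The other 61 comprise 32 writers (24 of methyl and 8 of acetyl groups) and 29 erasers (15 of methyl and 14 of acetyl groups). Setd3 and Setd6, which act on other proteins, are counted among the methyl writers. A further 8 coding genes that meet the rule (Hdac9, Hdac11, Kdm4d, Kdm5d, Kdm8, Setd4, Sirt4 and Sirt5) were not analysed here.

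RNA was sequenced from natural killer (NK) cells of the spleens of 20 untreated C57BL/6 mice (C57BL/6Ncr) aged 6 to 8 weeks, with no engineered allele named. Enriched NK1.1+ CD3- cells were sorted into those with Ly49G but no Ly49C/I (called Ly49G+, 3 libraries) and those with Ly49C/I but no Ly49G (called Ly49I+, 3 libraries). Ly49G and Ly49I are inhibitory receptors for MHC class I that each NK cell carries in its own combination, and the antibody of the second gate, 5E6, binds Ly49C as well as Ly49I. How the mice were divided among the replicates is not stated, so a p-value here reflects the spread among libraries, which may be technical.

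Histone methylation marks where and how a gene is used. Methylation of lysine 4 of histone H3 (H3K4) accompanies promoters and enhancers, that of H3K36 transcribed gene bodies, and that of H3K9, H3K27 and histone H4 lysine 20 (H4K20) silent or compacted chromatin. Acetylation loosens chromatin: it is placed by lysine acetyltransferases (Kat genes) and removed by zinc-dependent deacetylases (Hdac) and NAD-dependent sirtuins (Sirt), many of which also act on proteins other than histones.

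The sort was visible in the RNA. Klra7, the gene of Ly49G, averaged 974 ± 59.9 CPM (reads per 1000000 reads of the library) in Ly49G+ and 11.2 ± 0.475 CPM in Ly49I+ libraries, and Klra9, the gene of Ly49I, 78.1 ± 5.29 CPM in Ly49G+ and 1068 ± 110.1 CPM in Ly49I+ libraries (SD, n = 3 each). Library totals ran from 33599679 to 40892154 reads, and the 61 genes together took 0.986% to 1.08% of them, with no value below 294 reads. All 14 NK cell markers were listed and summed to 17411 to 17575 CPM in Ly49G+ and 18153 to 19038 CPM in Ly49I+ libraries. Markers of other cells differed between the groups: the 9 of 14 listed T cell markers summed to 410.0 to 483 CPM in Ly49G+ and 301 to 315 CPM in Ly49I+ libraries, and the 13 of 17 listed monocyte and macrophage markers to 1178 to 1216 CPM in Ly49G+ and 1763 to 2916 CPM in Ly49I+ libraries, highest in Ly49I+ replicate 2. Listed B cell markers (6 of 16) summed to 329 to 489.9 CPM in Ly49G+ and 223 to 538 CPM in Ly49I+. Of the dendritic cell markers 2 of 9 were listed, Itgax and Irf8. These summed to 1287 to 1412 CPM in Ly49G+ and 1093 to 1313 CPM in Ly49I+. The platelet marker (1 of 6) had 20.6 to 22.9 CPM in Ly49G+ and 21.6 to 24.4 CPM in Ly49I+, and 0 of 8 erythroid markers were listed. The monocyte and macrophage sum includes Itgam. Whether NK cells themselves carry transcripts of these lists was not tested. The part of other cell types in the values below was not tested. In bulk RNA fewer cells of a type and less RNA per cell cannot be told apart.

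None of the histone enzyme genes passed the test between the populations. With limma, adjusted over all 8520 genes at 0.05, 0 of 61 were called, where 3.59% of all genes were (1.82% higher in Ly49G+ and 1.77% higher in Ly49I+). At an unadjusted p under 0.05 there were 5 of 61, where 19.8% of all genes had such a p. The smallest adjusted p was 0.150, for the H3K4 methyltransferase gene Kmt2d. Differences ran from -0.29 to 0.27 on the log2 scale (Ly49G+ minus Ly49I+), and their median size was 0.10, against 0.13 over all genes. The median difference was -0.06, against -0.02 over all genes. By sign alone 20 members were higher in Ly49G+ and 41 higher in Ly49I+, against 3964 and 4556 over all genes. With the GC trend of each library removed, a step described further on, the members split 21 and 40 (median -0.03).

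The intervals show how large a difference the unblocked fit allows for 1 gene at a time. They rest on the spread among libraries and take no account of transcript GC. The 95% interval of the ratio of Ly49G+ to Ly49I+ lay within 2-fold in either direction for all 61 genes and within 1.5-fold for 55 of them. The 6 with wider intervals were Hdac4, Hdac5, Kmt5c, Sirt3, Sirt6 and Suv39h2, and the outermost bounds over all 61 were 0.615 (Hdac5) and 1.57 (Suv39h2). With the replicate number as a block, 2 members passed, where 11.7% of all genes did. Whether libraries of like number are pairs is not settled. Hdac2 was higher in Ly49G+, as 5.69% of all genes were, and Kmt2d was lower, as 5.96% were.

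**Figure D1:**
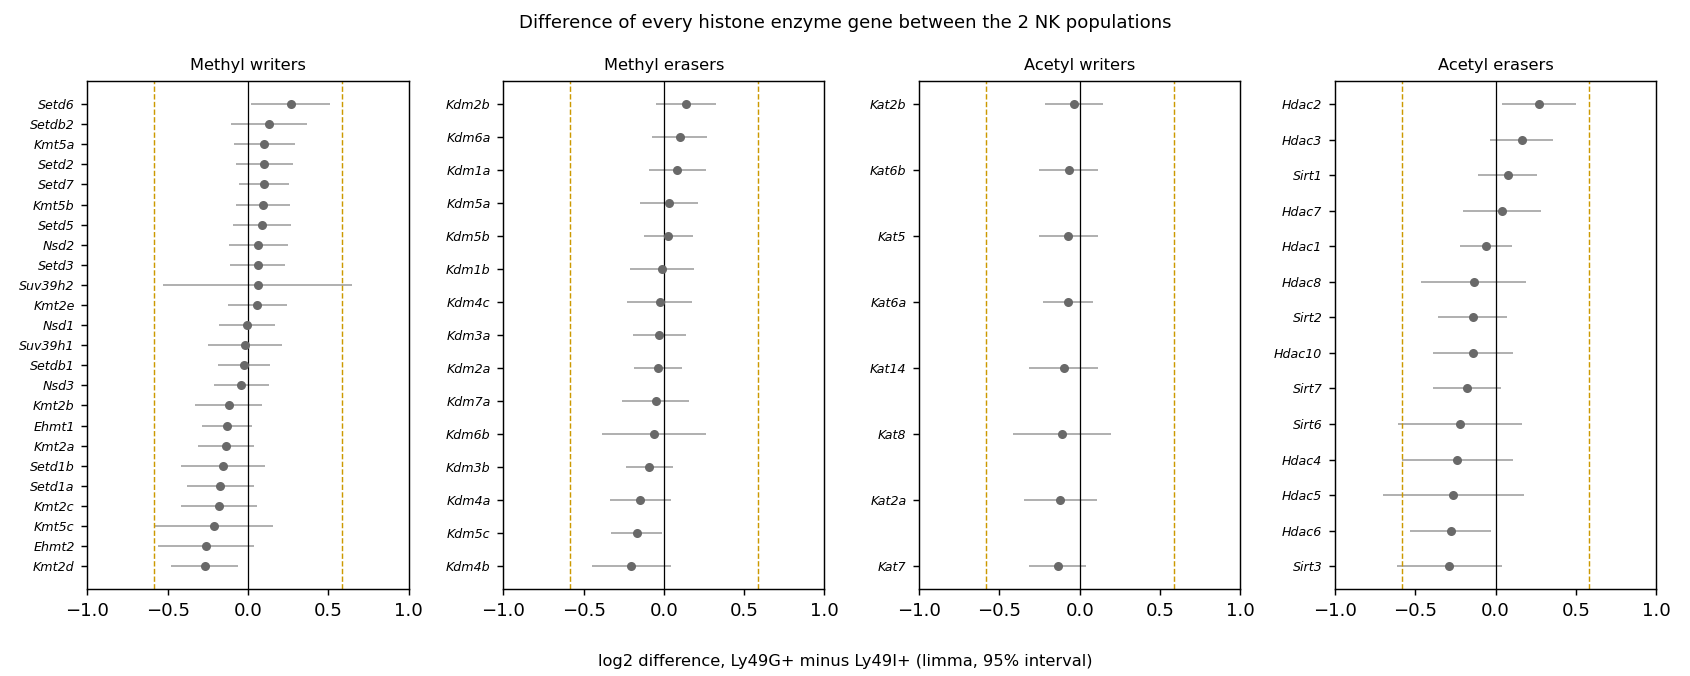
Log2 difference of Ly49G+ minus Ly49I+ with its 95% interval from limma for each of the 61 genes, in 4 panels by role; the dashed lines stand at a 1.5-fold difference. Points lie between -0.29 and 0.27, and 55 of the 61 intervals stay inside the dashed lines.

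In 9 of 61 genes the 3 libraries of one group all lay above the 3 of the other, which is 14.8%, where 25.8% of all genes were separated in this way. Separated toward Ly49G+ were 3 members (Hdac3, Setd6 and Setd7, where 12.5% of all genes were), and toward Ly49I+ 6 (Ehmt1, Hdac6, Kdm3b, Kdm5c, Kmt2d and Sirt3, where 13.4% of all genes were).

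Promoter windows are shown for Kmt2d and Hdac2, the members called with the block, and for Hdac6, whose p was the smallest among the separated erasers. Each holds the 250 bases before a RefSeq transcript start (build GRCm38.p6), written 5′ to 3′ along the gene's strand, and 0 GENCODE exon bases. The RefSeq gene spans given further on cover all transcripts. The Kmt2d window lies wholly inside its gene span, and the windows of Hdac2 and Hdac6 lie partly inside theirs. Capitals mark the GC box (GGGCGG or CCGCCC), the site known for Sp factors.
Kmt2d, minus strand, chr15:98871206-98871455: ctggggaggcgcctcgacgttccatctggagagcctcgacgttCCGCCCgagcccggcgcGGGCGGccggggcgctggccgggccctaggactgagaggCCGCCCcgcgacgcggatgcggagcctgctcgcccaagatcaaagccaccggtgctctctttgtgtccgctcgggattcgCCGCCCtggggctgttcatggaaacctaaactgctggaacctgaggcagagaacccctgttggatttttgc
Hdac2, plus strand, chr10:36974294-36974543: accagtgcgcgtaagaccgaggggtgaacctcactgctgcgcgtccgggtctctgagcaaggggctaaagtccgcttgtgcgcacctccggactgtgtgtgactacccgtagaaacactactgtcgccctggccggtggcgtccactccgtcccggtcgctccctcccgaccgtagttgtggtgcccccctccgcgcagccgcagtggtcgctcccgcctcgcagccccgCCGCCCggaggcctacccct
Hdac6, minus strand, chrX:7947890-7948139: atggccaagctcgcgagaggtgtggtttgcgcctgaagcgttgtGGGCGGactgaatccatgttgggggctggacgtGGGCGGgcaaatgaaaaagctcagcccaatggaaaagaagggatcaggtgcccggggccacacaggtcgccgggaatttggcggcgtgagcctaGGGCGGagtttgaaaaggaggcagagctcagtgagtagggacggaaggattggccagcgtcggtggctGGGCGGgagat
The windows of Kmt2d and Hdac6 hold 4 GC boxes each and that of Hdac2 holds 1. The ETS core (CCGGAAG) and the T-box site TCACACC, known for the NK cell factors T-bet and Eomes, were also searched on both strands and had 0 matches in the 3 windows. A RefSeq promoter window was at hand for 46 of the 61 genes, 67 windows in all. A GC box stood in 44 of these (65.7%), against 32.7% of all 32851 windows, the ETS core in 7 (10.4%, against 6.91%) and the T-box site in 0 (against 3.33%). By gene, 33 of the 46 held a GC box. The 32851 windows were not limited to the 8520 genes analysed, so these shares compare unlike sets of genes. A match describes the letters and is not a binding site.

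Among the 8 writers of H3K4 methylation 2 were higher and 6 lower in Ly49G+ by sign, with median difference -0.15 and 0 calls. With the GC trend of each library removed (a step chosen after seeing the data) 4 were higher and 4 lower (median -0.01). That trend was fitted on deviations from the mean of all 6 libraries. Its removal therefore also takes out any group difference that runs with GC. The source of such a difference was not tested. Kmt2d, which monomethylates H3K4 at enhancers (gene 381022, GRCm38.p6 chromosome 15, 98831669 to 98874077), had 422, 416 and 436 CPM in replicates 1, 2 and 3 of Ly49G+, against 486, 465 and 594 CPM in those of Ly49I+. The groups did not overlap, and Ly49I+ replicate 3 stood above the other Ly49I+ libraries. The log2 difference was -0.27 ± 0.09 (SE, limma adjusted p = 0.150, and 0.0254 with the replicate block), and without Ly49I+ replicate 3 it was -0.16 ± 0.07 (adjusted p = 0.283). The longest coding transcript of Kmt2d has a GC content of 58.4%, and once the GC trend was removed the difference was -0.10 ± 0.06 (adjusted p = 0.388, and 0.318 with the block).

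The 6 methyltransferases of the COMPASS family (Kmt2a, Kmt2b, Kmt2c, Kmt2d, Setd1a and Setd1b) were the ones lower in Ly49G+, at -0.27 to -0.12. With the GC trend removed 2 of the 6 were higher and the range was -0.20 to 0.06. Exons of Gm49388 on the same strand cover 53.3% of the exonic bases of Setd1a, so its value is uncertain. Kmt2c, the close relative of Kmt2d with the same reaction, had 705, 557 and 644 CPM in Ly49G+ and 815, 699 and 646 CPM in Ly49I+ libraries, and the groups overlapped (-0.18 ± 0.11, adjusted p = 0.360). Setd7, which monomethylates H3K4 and other proteins (chromosome 3, 51515318 to 51560823), was separated toward Ly49G+, at 128, 126 and 123 CPM in Ly49G+ and 121, 118 and 113 CPM in Ly49I+ libraries. That gap was small beside its error (0.10 ± 0.07, adjusted p = 0.444).

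Of the 5 writers of H3K36 methylation none was separated. Nsd1, which dimethylates H3K36, had 785, 723 and 757 CPM in Ly49G+ and 830.1, 735 and 718 CPM in Ly49I+ libraries. Setd2, the trimethylating enzyme, had 539.9, 493 and 519 CPM in Ly49G+ and 527, 477 and 446 CPM in Ly49I+ libraries. In both genes the ranges overlapped, with Nsd1 at -0.01 ± 0.08 (adjusted p = 0.961) and Setd2 at 0.10 ± 0.08 (adjusted p = 0.496), or 0.03 ± 0.06 with the GC trend removed.

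Among the 6 writers of H3K9 methylation Ehmt1 was the 1 separated. Ehmt1 encodes GLP, which pairs with G9a (Ehmt2) in mono- and dimethylation of H3K9 (gene 77683, chromosome 2, 24790769 to 24919643). It stood at 87.0, 86.0 and 87.4 CPM in Ly49G+ and 97.4, 92.9 and 94.5 CPM in Ly49I+ libraries. The spread within Ly49G+ was very small, and the difference was -0.13 ± 0.07 (adjusted p = 0.322). Ehmt2 had 107, 98.1 and 115 CPM in Ly49G+ and 107, 120.3 and 162 CPM in Ly49I+ libraries, so its groups overlapped and Ly49I+ replicate 3 stood apart (-0.26 ± 0.14, adjusted p = 0.306). Suv39h2, one of the pair that trimethylates H3K9 at heterochromatin (chromosome 2, 3455815 to 3474986), had the widest spread of the 61 in both groups on the log2 scale, at 14.7, 8.35 and 10.3 CPM in Ly49G+ and 14.5, 10.2 and 7.55 CPM in Ly49I+ libraries. Exons of Dclre1c on the opposite strand cover 8.25% of its exonic bases. Replicate 1 was the highest of each group, and the difference was 0.06 ± 0.26 (adjusted p = 0.918). Its partner Suv39h1 ran from 25.7 to 29.0 CPM in Ly49G+ and from 25.3 to 29.4 CPM in Ly49I+ libraries.

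The 3 H4K20 methyltransferases were not separated, and the remaining methyl writers, Setd6 and Setd3, act on other proteins. Setd6, known for methylating the NF-kappaB subunit RelA (gene 66083, chromosome 8, 95715634 to 95721507), stood at 19.7, 19.9 and 20.0 CPM in Ly49G+ and 17.5, 16.5 and 15.6 CPM in Ly49I+ libraries. All Ly49G+ libraries formed a narrow band above all Ly49I+ libraries, with a difference of 0.26 ± 0.11 (adjusted p = 0.223). With the GC trend removed it was 0.38 ± 0.12 (adjusted p = 0.0878, and 0.0640 with the block). Setd3, a histidine methyltransferase of actin, ran from 107 to 121 CPM in Ly49G+ and from 104 to 114 CPM in Ly49I+ libraries. Nsdhl ran from 17.5 to 18.6 CPM in Ly49G+ and from 16.6 to 18.6 CPM in Ly49I+ libraries.

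Among the 15 methyl erasers 5 were higher and 10 lower in Ly49G+ by sign, with a median difference of -0.03 and 0 calls. Kdm5c, which removes H3K4 methylation (gene 20591, chromosome X, 152233198 to 152279102), had 238, 227 and 249.8 CPM in Ly49G+ and 254, 270.1 and 278 CPM in Ly49I+ libraries. The groups were separated by a narrow gap, with a difference of -0.17 ± 0.07 (adjusted p = 0.234), or -0.10 ± 0.05 with the GC trend removed (adjusted p = 0.354). Kdm3b, which removes H3K9 methylation, was separated as well, at 333, 351 and 355 CPM in Ly49G+ and 366, 375 and 366 CPM in Ly49I+ libraries (-0.09 ± 0.07, adjusted p = 0.451). With the GC trend removed its difference was -0.01 ± 0.06 (adjusted p = 0.923).

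The H3K27 demethylases were not separated. Kdm6a (UTX), an X-linked gene, had 280.1, 282 and 268 CPM in Ly49G+ and 275, 266 and 235 CPM in Ly49I+ libraries. Kdm6b (JMJD3), known to be induced in activated immune cells, had 44.2, 48.5 and 58.3 CPM in Ly49G+ and 41.7, 59.2 and 57.6 CPM in Ly49I+ libraries. Both genes overlapped between the groups, with Kdm6a at 0.10 ± 0.08 (adjusted p = 0.495) and Kdm6b at -0.06 ± 0.15 (adjusted p = 0.838). The 3 Kdm4 genes, whose products remove H3K9 and H3K36 methylation, differed by -0.20 to -0.03 and none was separated.

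The 8 acetyltransferase genes were lower in Ly49G+ by sign, at differences of -0.14 to -0.04, with 0 separated and 0 called. With the GC trend removed 2 of the 8 were higher in Ly49G+. Kat7 (HBO1), which acetylates histones H3 and H4, differed most, at 180.2, 184 and 204 CPM in Ly49G+ and 198, 223 and 203 CPM in Ly49I+ libraries. Its groups overlapped (-0.14 ± 0.08, adjusted p = 0.348). Kat6a (MOZ), an H3 acetyltransferase, ran from 434 to 458 CPM in Ly49G+ and from 443 to 493 CPM in Ly49I+ libraries.

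Of the 14 acetyl erasers 4 were higher and 10 lower in Ly49G+ by sign, with a median difference of -0.14, or -0.05 with the GC trend removed. Hdac2, a catalytic subunit of the Sin3, NuRD and CoREST complexes (gene 15182, chromosome 10, 36974297 to 37001889), had 76.4, 80.3 and 63.7 CPM in Ly49G+ and 66.0, 59.0 and 56.8 CPM in Ly49I+ libraries. Ly49G+ replicate 3 lay below Ly49I+ replicate 1, so the groups overlapped. Within each replicate number the Ly49G+ library was the higher, though like numbers are not known to be pairs. The difference was 0.27 ± 0.10 (adjusted p = 0.187, and 0.0468 with the block). With a transcript GC content of 41.9%, Hdac2 differed by 0.17 ± 0.08 once the GC trend was removed (adjusted p = 0.231, and 0.194 with the block).

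Hdac1, the near twin of Hdac2 in the same complexes, had 103, 114 and 111 CPM in Ly49G+ and 113, 117 and 111 CPM in Ly49I+ libraries (-0.06 ± 0.07, adjusted p = 0.670). The ratio of Hdac2 to Hdac1 per kilobase of transcript was 0.465, 0.441 and 0.360 in Ly49G+ and 0.365, 0.315 and 0.321 in Ly49I+ libraries. The ranges overlapped, since Ly49G+ replicate 3 lay just below Ly49I+ replicate 1. Hdac3, the deacetylase of the NCoR and SMRT corepressors, was separated, at 62.75, 71.5 and 64.5 CPM in Ly49G+ and 55.0, 62.66 and 59.8 CPM in Ly49I+ libraries (0.16 ± 0.09, adjusted p = 0.320). Its lowest Ly49G+ and highest Ly49I+ values were almost equal.

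Hdac6 and Sirt3 were separated toward Ly49I+. Hdac6, a cytoplasmic deacetylase of tubulin (gene 15185, chromosome X, 7930116 to 7948047), stood at 14.8, 15.1 and 14.6 CPM in Ly49G+ and 18.6, 17.5 and 18.0 CPM in Ly49I+ libraries. The gap was wider than the range of either group, and the difference was -0.28 ± 0.11 (adjusted p = 0.214), or -0.18 ± 0.12 with the GC trend removed (adjusted p = 0.421). Sirt3, a mitochondrial deacetylase (chromosome 7, 140863663 to 140882309), had 12.1, 9.95 and 11.3 CPM in Ly49G+ and 14.2, 12.2 and 14.2 CPM in Ly49I+ libraries (-0.29 ± 0.15, adjusted p = 0.302). Exons of Psmd13 and Ric8a on the opposite strand cover 8.82% and 3.54% of its exonic bases, and no source used here says whether reads were counted by strand. The class IIa gene Hdac5 had 36.2, 31.8 and 44.9 CPM in Ly49G+ and 34.1, 42.2 and 62.1 CPM in Ly49I+ libraries, the widest spread in Ly49I+ after Suv39h2.

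**Figure D2:**
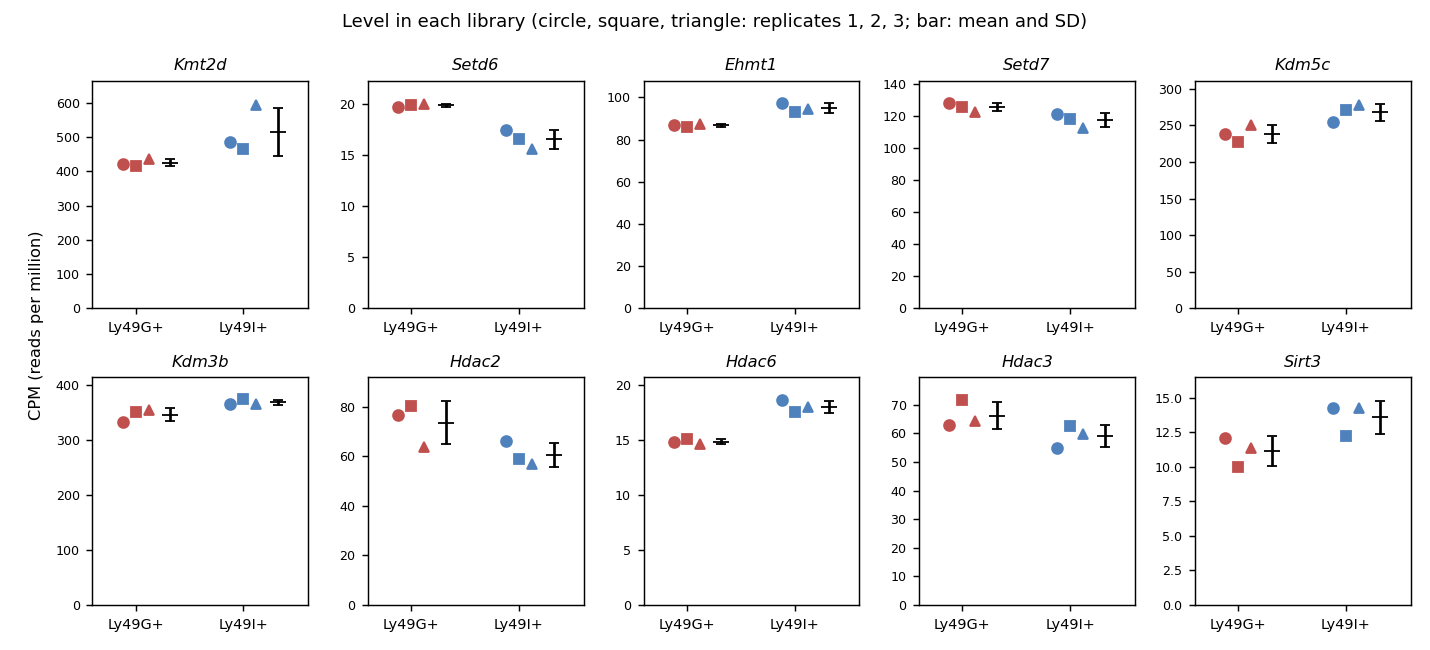
CPM of 10 genes in each library, Ly49G+ left and Ly49I+ right, with the mean and SD of 3 libraries; each axis starts at 0. Hdac2 overlaps between the groups and the other 9 do not, and the Kmt2d value of Ly49I+ replicate 3 (594 CPM) stands above its other libraries.

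Levels were compared between genes per kilobase of the longest coding GENCODE transcript, so a gene that uses a shorter transcript is understated. The median member stood at 21.9 CPM per kilobase, against 15.8 over all genes. Kmt2e, a member of the MLL family known to have little enzyme activity of its own, was the highest of the 61, at 75.6 ± 1.86 in Ly49G+ and 72.9 ± 7.32 CPM per kilobase in Ly49I+ libraries (SD, n = 3 each). Exons of Srpk2 on the opposite strand cover 13.3% of its exonic bases, so its place is uncertain. Next among methyl writers were Setd2 (61.9 ± 2.84 in Ly49G+ and 57.9 ± 4.88 in Ly49I+) and Nsd1 (59.1 ± 2.43 in Ly49G+ and 59.5 ± 4.74 in Ly49I+), which were not apart, as each was the higher in 3 of 6 libraries. The lowest of the 61 was Suv39h2 (2.57 ± 0.756 in Ly49G+ and 2.48 ± 0.805 in Ly49I+).

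Methyl erasers were led by Kdm3b (54.4 ± 1.86 in Ly49G+ and 58.0 ± 0.758 CPM per kilobase in Ly49I+). Kdm2a, an H3K36 demethylase (45.3 ± 1.99 in Ly49G+ and 46.4 ± 1.35 in Ly49I+), and Kdm6a (46.6 ± 1.25 in Ly49G+ and 43.6 ± 3.55 in Ly49I+) came next and were not apart. Kdm6b was the lowest methyl eraser (7.57 ± 1.08 in Ly49G+ and 7.94 ± 1.46 in Ly49I+).

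The acetyltransferases ran from Kat7 (53.1 ± 3.54 in Ly49G+ and 58.4 ± 3.63 CPM per kilobase in Ly49I+) through Kat6a (48.9 ± 1.34 in Ly49G+ and 51.4 ± 2.76 in Ly49I+) and Kat5, which encodes TIP60 (29.0 ± 1.53 in Ly49G+ and 30.4 ± 1.85 in Ly49I+), to Kat6b (8.47 ± 0.432 in Ly49G+ and 8.89 ± 0.563 in Ly49I+), which was not apart from Kat8. The first 3 kept this order in all 6 libraries, though exons of Rnaseh2c overlap 18.9% of Kat5 on the opposite strand. Acetyl erasers were led by Sirt7, a nucleolar sirtuin (54.4 ± 2.99 in Ly49G+ and 61.8 ± 7.54 in Ly49I+), and Hdac1 (53.7 ± 2.77 in Ly49G+ and 55.9 ± 1.56 in Ly49I+), which were not apart. Hdac3 followed (32.6 ± 2.29 in Ly49G+ and 29.1 ± 1.90 in Ly49I+), not apart from Sirt2, and Hdac6 had the lowest mean (3.58 ± 0.0576 in Ly49G+ and 4.35 ± 0.131 in Ly49I+), not apart from Hdac4. RefSeq names pseudogenes of Hdac1, Kat2b and Kat6b, so their values are uncertain where reads could be shared.

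**Figure D3:**
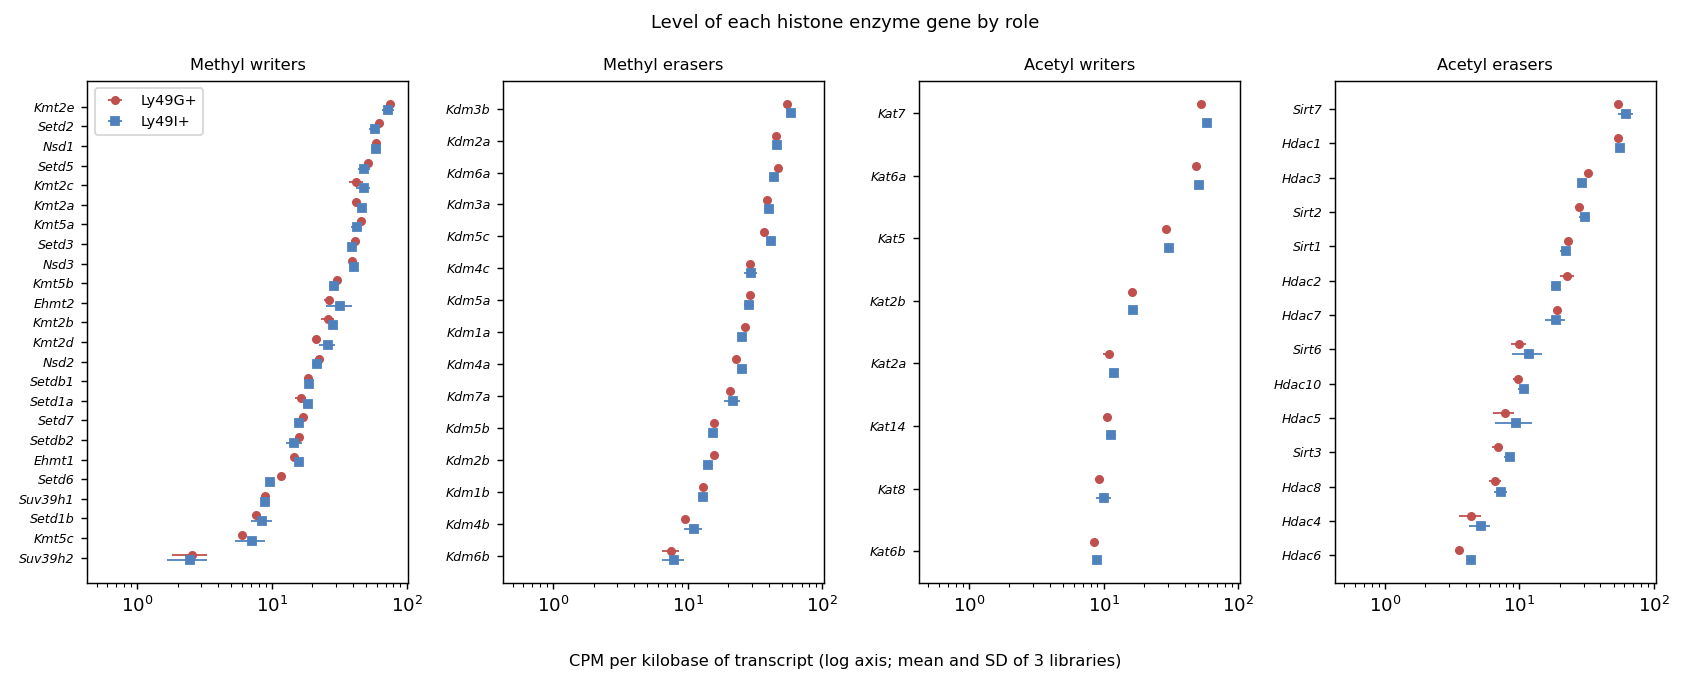
CPM per kilobase of transcript on a log axis for each gene, by role, as mean and SD of 3 libraries (Ly49G+ circles, Ly49I+ squares). Levels span from 2.48 for Suv39h2 to 75.6 for Kmt2e, while the pair of symbols of each gene stays close.

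The balance of writers and erasers was set out as the ratio of their summed CPM per kilobase. Only genes of the name rule entered the sums, so other enzymes, such as the acetyltransferases Ep300 and Crebbp, are left out. A ratio above or below 1 therefore does not show which side outweighs the other. Erasers of more than one mark were counted in each, so the Kdm4 genes stand among the erasers of H3K36 and of H3K9, and Kdm7a among those of H3K9. For H3K4 the ratio was 2.06, 2.03 and 2.06 in Ly49G+ and 2.15, 2.17 and 2.10 in Ly49I+ libraries. Of the 4 ratios shown it was the 1 whose groups did not overlap, by a small margin. Among single genes 25.8% of all were separated in this way. The ratio over all methyl writers and erasers overlapped, at a mean of 1.71 in Ly49G+ and 1.69 in Ly49I+ libraries. The median transcript GC was 53.8% for the H3K4 writers and 47.6% for the H3K4 erasers. Of the H3K4 writer sum of 249 CPM per kilobase in Ly49G+, Kmt2e took 75.6, and of 265 in Ly49I+ 72.9. Kmt2e is known to have little enzyme activity of its own, and no ratio without it was taken. For H3K36 the ratio averaged 1.91 ± 0.0519 in Ly49G+ and 1.797 ± 0.139 in Ly49I+ libraries (SD, n = 3 each), or 3.85 ± 0.166 in Ly49G+ and 3.76 ± 0.268 in Ly49I+ with Kdm2a and Kdm2b as the erasers. For H3K9 it was 0.495 ± 0.0152 in Ly49G+ and 0.503 ± 0.0428 in Ly49I+ libraries, or 0.931 ± 0.0443 in Ly49G+ and 0.953 ± 0.0842 in Ly49I+ with Kdm3a and Kdm3b as the erasers. The acetyl ratio was 0.661 ± 0.0012 in Ly49G+ and 0.679 ± 0.0375 in Ly49I+ libraries. These 3 overlapped under either count of erasers, and the ratios, as sums over chosen genes, carry no test.

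**Figure D4:**
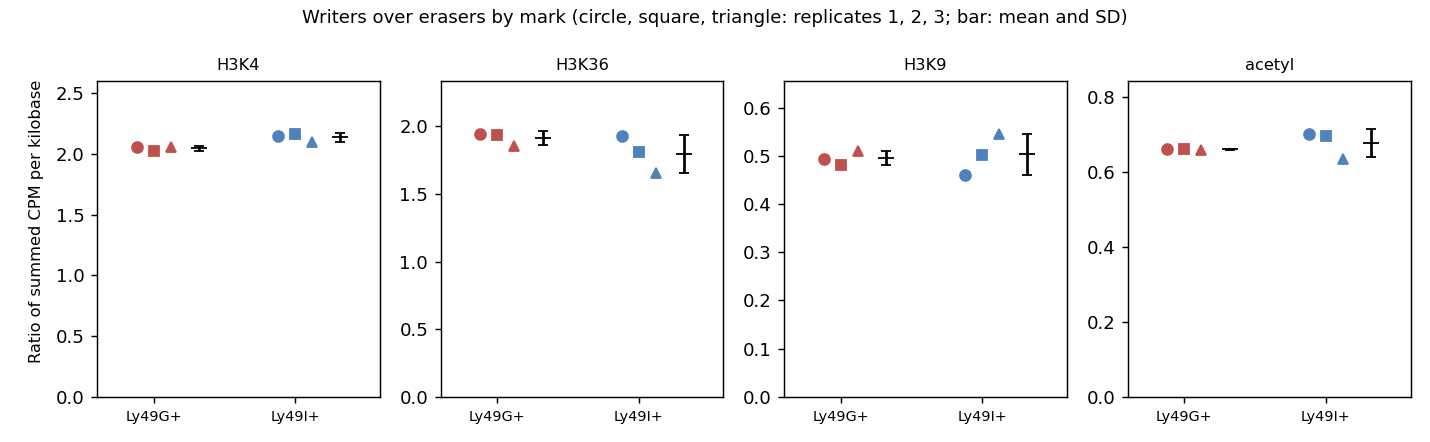
Ratio of summed CPM per kilobase of writers to that of erasers in each library for H3K4, H3K36 (erasers Kdm2a, Kdm2b and the Kdm4 genes), H3K9 (erasers Kdm3a, Kdm3b, Kdm7a and the Kdm4 genes) and acetyl groups, with mean and SD of 3 libraries and axes from 0. The H3K4 ratio lies at 2.03 to 2.06 in Ly49G+ and 2.10 to 2.17 in Ly49I+, and the other ratios overlap. The H3K4 writers include Kmt2e, and only genes of the name rule are summed.

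Deviations of the 61 genes from their group mean followed the base composition of their transcripts in several libraries. Over the 61 genes Spearman's rho between deviation and transcript GC was -0.49, -0.14 and 0.62 in Ly49G+ replicates 1, 2 and 3 and -0.82, -0.23 and 0.84 in Ly49I+ replicates 1, 2 and 3. Over 8275 genes with a transcript length it was -0.22, -0.26 and 0.46 in Ly49G+ and -0.68, -0.07 and 0.71 in Ly49I+. These describe genes that share a library, and the 3 deviations of a group sum to 0. In Ly49I+ replicate 1 the 20 members of highest GC (from 53.6%) lay at a median of -0.13 and the 20 of lowest GC (up to 47.6%) at 0.12. In Ly49I+ replicate 3 the signs were turned, at 0.14 for the 20 highest and -0.11 for the 20 lowest.

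Single genes, named after their values were seen, differed in which of the 6 libraries was highest or lowest. Ehmt2 (60.8% GC), Kmt5c (60.0%), Hdac5 (58.8%) and Sirt6 (58.4%) were each highest in Ly49I+ replicate 3, at 162, 25.5, 62.1 and 28.2 CPM. Kdm6b (59.6%) was not, at 57.6 CPM there against 59.2 CPM in Ly49I+ replicate 2. Suv39h2 (43.0%), the gene of widest spread and lowest level, was lowest in Ly49I+ replicate 3. Nsd2 (41.4%) was lowest in Ly49I+ replicate 2, at 158 CPM against 162 CPM in replicate 3. The group difference moved with GC too: Spearman's rho was -0.63 over the 61 genes and -0.51 over 8275 genes. The median difference was -0.16 for the 20 members of highest GC and 0.03 for the 20 of lowest. With the GC trend removed from each library 0 of the 61 passed, where 6.66% of all genes did, and 0 with the block as well, where 8.34% did.

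**Figure D5:**
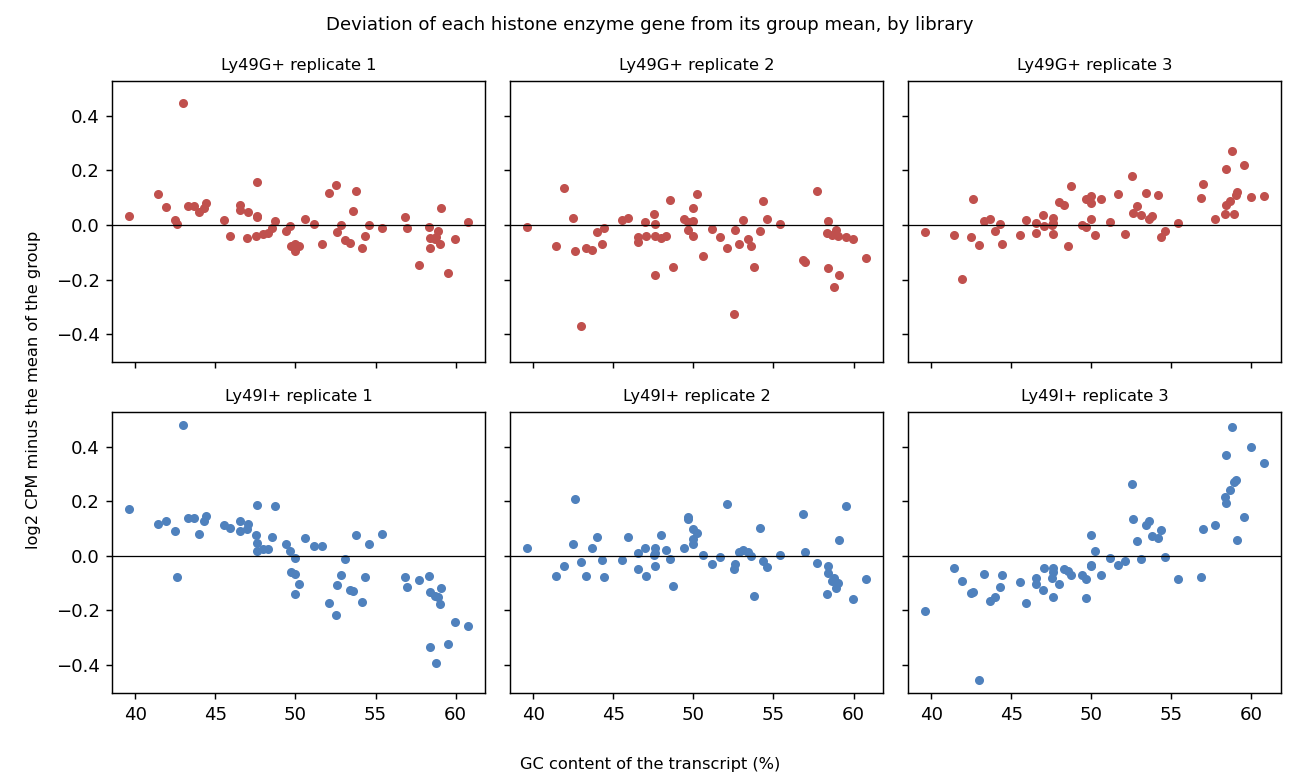
Deviation of each of the 61 genes from the mean of its group (log2 CPM) against transcript GC content in percent, one panel for each library, Ly49G+ in the upper and Ly49I+ in the lower row. Points fall with GC in Ly49I+ replicate 1 (rho -0.82) and rise with it in Ly49G+ replicate 3 (rho 0.62) and Ly49I+ replicate 3 (rho 0.84).

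Among 126 measured genes of the same complexes and reactions outside the name rule, 0 were called higher and 1 lower in Ly49G+, where 3.59% of all genes were called. It was Prdm1, the transcriptional repressor Blimp-1, whose family shares a SET-like domain, at 109, 110.04 and 121 CPM in Ly49G+ and 136, 144 and 149 CPM in Ly49I+ libraries. Its groups did not overlap (-0.34 ± 0.08, adjusted p = 0.0375). The difference lay between -0.39 and -0.31 in all alternatives. The call was lost without the intensity trend (adjusted p = 0.0834) and when any single library other than Ly49I+ replicate 1 was left out (adjusted p up to 0.197), and it held with the GC trend removed (adjusted p = 0.00762, and 0.00227 with the block). At an unadjusted p under 0.05 there were 20 of 126, where 19.8% of all genes were, and the median difference of the 126 was -0.01, against -0.02 over all genes.

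With the replicate block 9 of the 126 passed, where 11.7% of all genes did. Of these 5 were higher in Ly49G+ (Arid4b, Ash2l, Cbx3, Mbd2 and Suz12) and 4 lower (Gatad2a, Kansl3, Prdm1 and Trrap). With the GC trend removed as well 6 passed, where 8.34% of all genes did: 3 of the 9 (Ash2l, Mbd2 and Prdm1) and Chd3, Dpy30 and Trerf1. Suz12, a core subunit of the H3K27 methyltransferase PRC2, had 173, 183 and 161 CPM in Ly49G+ and 154, 143 and 135 CPM in Ly49I+ libraries. Its groups did not overlap (0.26 ± 0.08, adjusted p = 0.111, and 0.0278 with the block), and with the GC trend removed and the block the difference was 0.15 ± 0.06 (adjusted p = 0.126). The acetyltransferase genes Ep300 (-0.13 ± 0.07, adjusted p = 0.333) and Crebbp (-0.10 ± 0.07, adjusted p = 0.404) did not pass.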

How the data were processed

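RNA of 6 libraries was sequenced with a strand-specific total RNA kit from 0.4 µg of RNA as pairs of 100-base reads, per the labels' protocols. Tools named are CASAVA 1.8.2, STAR 2.3.0 and limma, with build mm10, per the submitters' processing notes (read counter, annotation, counting strand and low-value filter not given in the sources used here). What the authors deposited is log2 CPM as limma's voom writes it, with 0.5 added to each count and 1 to the library total, unscaled otherwise. Inverting this returned whole reads, to 0.001 read, in 100% of values. No gene had fewer than 2 libraries at 10 CPM. Symbols came from RefSeq GRCm38.p6 by gene number (8429 of 8520 genes matched).

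All genes entered limma 3.58.1 (R 4.3.3) on those log2 values, with an intensity trend, two-sided, Benjamini-Hochberg adjusted at 0.05. Tested on simulated data (8520 genes, 200 changed), it found 50% of changes of 0.5 on the log2 scale, 98.6% of changes of 1 and 100% of changes of 2, beside 8 false positives. The simulated noise was independent between genes and held no GC trend, so the false positives in the real libraries may differ. No change below 0.5 was simulated, so the power at the members' differences (-0.29 to 0.27) was not measured. Same-numbered libraries deviated together over all genes (r = 0.371, 0.114 and 0.156 for numbers 1, 2 and 3, all above 0.1). A fit with the number as a block was run beside the unblocked main fit. Blocked values are given where they change the call of a member. Ly49G+ replicate 3 also deviated with Ly49I+ replicate 2 (r = 0.359), and Ly49G+ replicate 2 with Ly49I+ replicate 1 (r = 0.115). Other unlike numbers ran from -0.495 to 0.0342. These values do not settle whether the numbers are pairs. After removal of each library's lowess trend on transcript GC, r was 0.303, 0.0589 and -0.123 for numbers 1, 2 and 3. For Ly49G+ replicate 3 with Ly49I+ replicate 2 it was then 0.412. Members and lists were chosen with earlier results of these data known. Named are members called, separated between groups, called with the block, the 3 highest or the 1 lowest per kilobase of their role, or widest in spread, and companion genes called. Other genes were named after their values were seen. Alternatives were other variance priors and weights, log2(CPM + 1), 2 scalings, a minimum mean log2 CPM of 4, the block, GC trend removal and leaving out each library. Python 3.11.15, pandas 2.3.3 and matplotlib 3.10.9 were used.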

Additional observations from a re-analysis of the deposited data

How the results depend on the processing

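The count of histone enzyme genes past the threshold was 0 with limma and in each alternative run, except with the replicate block (2). Over all genes 306 passed, 993 with the replicate block, 551 with the GC trend removed and 690 with both (both GC settings chosen after seeing the data), and 94 to 644 with single libraries left out, the lowest without Ly49G+ replicate 2 and the highest without Ly49I+ replicate 1. Of the 306, 155 were higher and 151 lower in Ly49G+, against 193 and 147 of 340 after median centring. Of the 126 companion genes 1 passed, 9 with the replicate block, 3 with the GC trend removed, 6 with both, 0 without the intensity trend and 0 to 3 with single libraries left out. The cause of these shifts was not tested. With the GC trend removed, with and without the replicate block, Kat5 was 0.027, Kdm6a -0.00058, Kdm6b 0.13 and Suv39h2 -0.032, each with its sign turned, and none of the 4 was called. With median centring Nsd1 was 0.0096, its sign turned. With single libraries left out Kdm6b ranged from -0.22 to 0.030, Kmt2e from -0.027 to 0.11, Nsd1 from -0.050 to 0.055 and Suv39h2 from -0.17 to 0.30. Beyond Hdac2 and Kmt2d the replicate block changed the call of no member.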
